A study of Homo sapiens with 4 samples.

Results

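This account covers the MYC, MAX and MXD network, a set of 10 genes (MYC, MYCL, MYCN, MAX, MXD1, MXD3, MXD4, MXI1, MNT and MGA) chosen by symbol in the deposited gene table, out of 62069 genes in each library. Messenger RNA was sequenced in KMS11, an established cell line of multiple myeloma with the t(4;14) translocation, which brings the histone methyltransferase gene NSD2 under immunoglobulin control. The control group was 2 libraries from cells infected with a control shRNA lentivirus, and the other group was 2 libraries from cells infected with a lentivirus labelled shM2, whose genotype label is NSD2 Knockdown. All cells had polybrene at 10 µg/mL during infection and were taken at 96 h, of which 72 h followed the change of medium. The names of the control alignments carry shScr while the deposited contrast is named M2 over LUC, and the shRNA sequences were not used here. Whether the 2 libraries of each group were grown as separate cultures is not stated in the labels, so the p-values given here reflect spread between samples that could be purely technical.

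Proteins of the MYC family bind DNA as heterodimers with MAX, through a basic helix-loop-helix leucine zipper, at E-box sequences, and activate genes of growth, ribosome production and metabolism. MXD1, MXI1, MXD3, MXD4 and MNT also pair with MAX, bind the same E-boxes and recruit the SIN3 corepressor, and MXD1, MXD4 and MNT can pair with the related protein MLX as well. MGA pairs with MAX inside a variant Polycomb complex, PRC1.6. MYC is a central oncogene of plasma cell cancer, and in myeloma it is linked in a mutual loop to the plasma cell factor IRF4.

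The libraries held 46728940 to 55059566 counted fragments, and mitochondrial genes took 5.82% to 6.82% of them. Plasma cell markers summed to 3200 to 3584 CPM (counts per 1e6 fragments, on TMM-scaled libraries), and 7 of 9 had a mean of at least 1 CPM; CD38 and CD27 did not. Of the 9, 2 fell and 0 rose by edgeR, where 4.19% of all 17172 genes tested fell and 1.74% rose. SLAMF7, a surface receptor gene, went from 237 and 272 to 110 and 129 CPM (adjusted p = 0.000952 by edgeR). CD38 went from 1.54 and 0.700 to 0.290 and 0.0369 CPM (adjusted p = 0.0284 by edgeR). Of the other marker lists, T cell, myeloid, fibroblast and erythroid genes summed to at most 4.45 CPM in any library, with CD3D, CD5 and LUM at 0 throughout. The epithelial and kidney list, with 3 of 6 genes above 1 CPM, summed to 66.4 and 53.9 CPM in the controls and to 34.4 and 32.9 CPM in the libraries labelled knockdown. All 3 tested genes of this list fell by edgeR, and the rest were too low to test. They were EPCAM (log2 fold change -0.78, adjusted p = 0.00859), KRT18 (-1.57, 0.00588) and CDH1 (-1.05, 0.0248). The part of this list in the results was not tested. NSD2 itself overlapped between the groups (1121 and 1471 CPM against 919 and 1156 CPM, log2 fold change -0.32, adjusted p = 0.244 by edgeR), and the name of the second group below is only its label. The value of NSD2 depended on single libraries: the log2 fold change of NSD2 was -0.50 and past the threshold without control library 1 (adjusted p = 0.0196) or knockdown library 2 (0.0268), and -0.12 and -0.16 without control library 2 and knockdown library 1. With terms for GC content and length it was -0.07, while with the replicate block (adjusted p = 0.0197) or no filter (0.0173) NSD2 passed the threshold at -0.32.

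MYCL, the paralog of MYC first known from lung cancer, was the 1 member of the network that passed the adjusted test. It fell by 58.3%, while MYC and MYCN, its better expressed paralogs, gave log2 fold changes of -0.03 and 0.01 and did not pass the test. MAX, the shared partner, and the 6 genes on the opposing side, MXD1, MXI1, MXD3, MXD4, MNT and MGA, did not pass it either. Of 10 members tested, 1 was lower and 0 were higher by edgeR, against a background of 4.19% lower and 1.74% higher among the 17172 genes tested (5.93% in either direction). With 10 genes, 1 call is near that background. The median log2 fold change of the 10 was -0.03, where that of all genes tested was -0.00165. In 7 of the 10 the groups did not overlap, beside 53.2% of all genes. At an unadjusted p below 0.05 stood 4 of 10 members, MYCL, MXI1, MXD4 and MXD1, compared with 3865 of 17172 genes (22.5%). In bulk RNA, fewer cells that express a gene and less of its RNA per cell cannot be told apart.

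**Figure D1:**
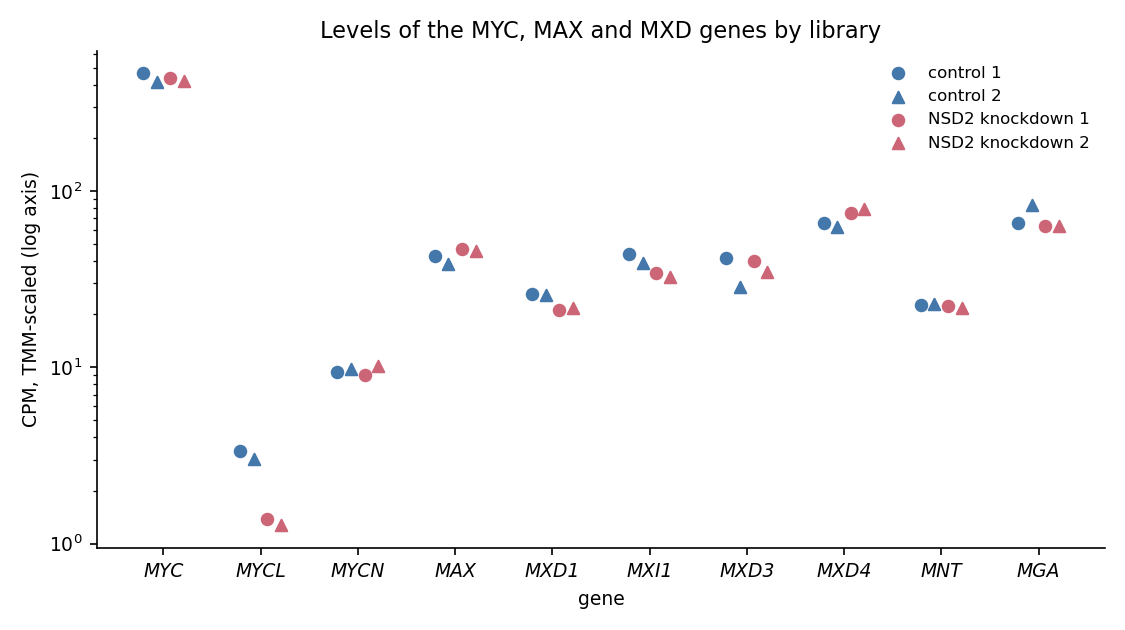
Level of each network gene in each library, in CPM on a log axis, for the 2 control libraries (blue) and the 2 libraries labelled NSD2 knockdown (red), with circles for number 1 and triangles for number 2. MYC lies between 414 and 466 CPM in all 4 libraries, and MYCL is the gene with the widest gap between the groups.

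MYC (ENSG00000136997, chromosome 8, 128747680 to 128753674, GRCh37) was measured at 466 and 414 CPM in the controls numbered 1 and 2. The libraries labelled knockdown gave 438 and 424 CPM. Both knockdown values lay between the 2 controls. The means were 439.5 ± 36.8 and 430.8 ± 10.0 CPM (SD, n = 2 each). The log2 fold change was -0.03 with an SE of 0.10 and an adjusted p of 0.900, and its 95% interval ran from -0.25 to 0.20. Per kb of exon, MYC reached 147 CPM per kb in the controls, above 98.4% of the 13037 protein-coding genes tested, with 210 genes above it.

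MYCL (ENSG00000116990, chromosome 1, 40361098 to 40367928, minus strand) was counted with 169 and 143 fragments in the controls and with 67 and 69 fragments in the libraries labelled knockdown. That was 3.34 and 3.03 CPM against 1.39 and 1.27 CPM, so the groups were well separated. The fall was 2.40-fold, from 3.19 ± 0.22 to 1.33 ± 0.0808 CPM (SD, n = 2 each, log2 fold change -1.26 with an SE of 0.21, adjusted p = 0.00786 by edgeR, 95% interval -1.72 to -0.80). MYCL was a minor part of the family in this line. Per kb it stood at 0.629 CPM in the controls, above 18.3% of protein-coding genes tested, and its ratio to MYC was 0.00425 and 0.00434 in the controls against 0.00187 and 0.00177 in the libraries labelled knockdown. The call held in each of the 12 alternatives without a replicate block, with log2 fold changes from -1.34 to -1.19 and adjusted p from 1.71e-06 to 0.0121. Its span holds an antisense gene with at most 1 fragment in any library.

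MYCN (ENSG00000134323, chromosome 2, 16080686 to 16087129), the paralog best known from neuroblastoma, was present in these plasma cells at 9.46 and 9.78 CPM in the controls and at 9.10 and 10.2 CPM in the libraries labelled knockdown. The groups overlapped (log2 fold change 0.01 with an SE of 0.13, adjusted p = 0.987, 95% interval -0.29 to 0.31). Its antisense partner MYCNOS, whose span shares 1686 bp with it, had 24 to 45 fragments per library, against 440 to 554 for MYCN. Fragments were counted without regard to strand, so reads of the pair cannot be told apart where they overlap.

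The promoters of MYCL and MYCN are shown because the paralogs differed in whether they passed the test, and that of MXD4 because it holds an E-box. They are the 250 bases before the start of the gene in RefSeq on GRCh38.p14, a later build than that of the counts. Capitals mark the E-box CACGTG, which reads the same on both strands, and the GC box GGGCGG or its reverse complement CCGCCC. MYCL lies at chr1:39901918-39902167 (minus strand), MYCN at chr2:15940300-15940549 (plus strand) and MXD4 at chr4:2262110-2262359 (minus strand).
MYCL: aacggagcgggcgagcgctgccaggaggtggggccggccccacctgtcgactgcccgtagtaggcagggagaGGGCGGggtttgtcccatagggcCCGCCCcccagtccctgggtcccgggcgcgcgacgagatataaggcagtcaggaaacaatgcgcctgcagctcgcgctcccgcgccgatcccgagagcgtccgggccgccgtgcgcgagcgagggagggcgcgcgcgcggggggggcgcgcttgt
MYCN: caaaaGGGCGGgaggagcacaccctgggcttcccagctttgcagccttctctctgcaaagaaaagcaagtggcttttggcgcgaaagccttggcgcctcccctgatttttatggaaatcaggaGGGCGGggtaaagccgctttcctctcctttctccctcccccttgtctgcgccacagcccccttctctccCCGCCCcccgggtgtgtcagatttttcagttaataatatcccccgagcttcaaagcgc
MXD4: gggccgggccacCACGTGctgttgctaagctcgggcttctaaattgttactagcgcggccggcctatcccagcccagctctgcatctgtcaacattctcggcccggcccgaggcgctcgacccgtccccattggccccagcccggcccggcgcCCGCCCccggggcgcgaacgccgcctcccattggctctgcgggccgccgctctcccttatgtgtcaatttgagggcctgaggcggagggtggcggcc

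The MYCL window held 2 GC boxes and no CACGTG, and the MYCN window held 3 GC boxes and no CACGTG. Bases G and C made up 74.4% of the first and 57.2% of the second. In MXD4 the E-box lay at bases -238 to -233 from the start, beside 1 GC box. RefSeq gave 14 promoter windows for 9 of the 10 members, and 2 of the 14, those of MXD4 and MNT, held CACGTG, compared with 6.34% of all 35116 windows. GGGCGG was in 11 of the 14, against 42.6% of all windows. The 2 motifs share no position. These are matches of letters in a window, with no binding measured here.

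MAX (ENSG00000125952, chromosome 14, 65472892 to 65569413), the partner with which MYC proteins bind DNA, was at 42.7 and 38.6 CPM in the controls and at 47.2 and 45.5 CPM in the libraries labelled knockdown. Both knockdown values were above both controls. The log2 fold change of 0.19 (SE 0.10, 95% interval -0.03 to 0.41) had an adjusted p of 0.288. It was 0.27 without control library 1 and 0.11 without control library 2, past the threshold in neither, and 0.21 with the replicate block together with GC and length terms, where it passed (adjusted p = 0.0255). The span of MAX shares 56477 bp with FNTB on the other strand, which had 41 to 48 fragments per library against 1820 to 2472 for MAX.

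**Figure D2:**
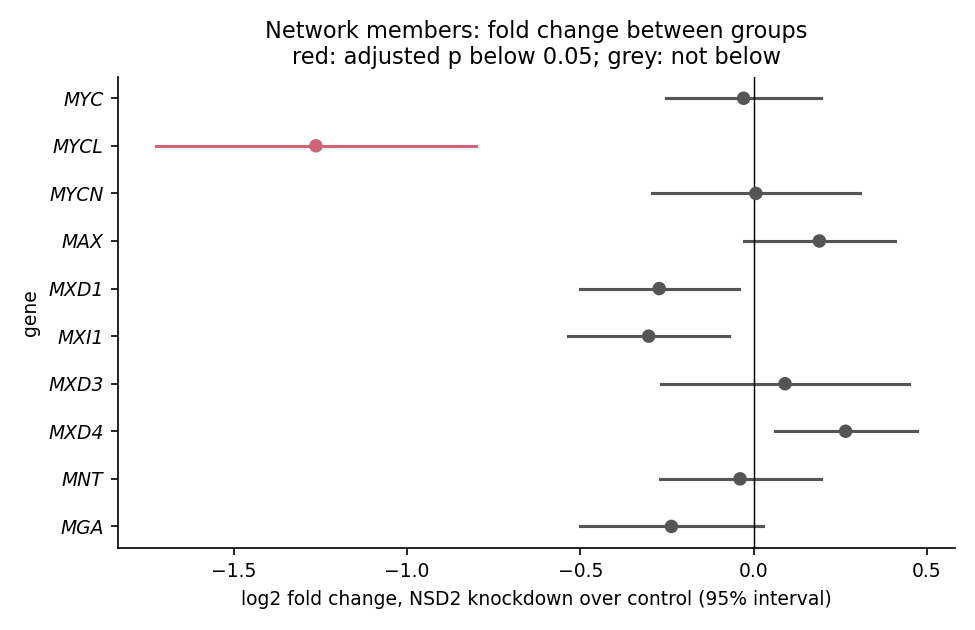
Log2 fold change of each network gene, NSD2 knockdown over control, with its 95% interval from the edgeR fit (n = 2 libraries per group). MYCL alone passed the threshold (red), and the intervals of MXD1, MXI1 and MXD4 leave out 0 before adjustment over all genes.

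Among the MXD genes, MXD1 and MXI1 had lower means and MXD4 a higher mean in the libraries labelled knockdown, and these differences did not pass the adjusted test. MXI1 (ENSG00000119950, chromosome 10, 111967363 to 112047123), a repressor also known as MXD2, stood at 43.9 and 38.9 CPM in the controls against 34.5 and 32.6 CPM. The groups did not overlap (log2 fold change -0.30, SE 0.10, unadjusted p = 0.0155, adjusted p = 0.122 by edgeR). With control library 2 left out, it passed the threshold (log2 fold change -0.39, adjusted p = 0.0373).

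MXD1 (ENSG00000059728, chromosome 2, 70124820 to 70170077), the founding MAX dimerization partner of the group, was at 26.0 and 25.8 CPM in the controls and at 21.2 and 21.7 CPM in the libraries labelled knockdown. Its replicates lay close together and the groups did not overlap (log2 fold change -0.27, SE 0.10, unadjusted p = 0.0246, adjusted p = 0.155 by edgeR). The span of MXD1 shares 7888 bp with SNRNP27 on the same strand, which had 868 to 1173 fragments per library. Exons of the 2 genes were not compared, so the gene of origin is uncertain for fragments there.

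MXD4 (ENSG00000123933, chromosome 4, 2249159 to 2264021) lies on the same chromosome arm as the translocation breakpoint genes, 265 kb from the end of NSD2. It stood at 66.1 and 62.6 CPM in the controls and at 75.4 and 79.3 CPM in the libraries labelled knockdown. Both knockdown libraries were above both controls (log2 fold change 0.27, SE 0.09, unadjusted p = 0.0165, adjusted p = 0.126 by edgeR). Its log2 fold change was 0.33 with terms for GC content and length (adjusted p = 0.0570).

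MXD3 (ENSG00000213347, chromosome 5, 176728462 to 176739758), the MXD form tied to S phase in dividing cells, did not separate the groups. It was at 41.5 and 28.7 CPM in the controls and at 39.9 and 34.8 CPM in the libraries labelled knockdown (log2 fold change 0.09, SE 0.16, adjusted p = 0.785 by edgeR). Control library 2 was the lowest of the 4. The sign hung on single libraries: the log2 fold change was 0.39 without control library 1 (adjusted p = 0.0445) and -0.16 without control library 2. MXD3 was also the 1 member that differed between the library numbers, number 2 over number 1, with a log2 fold change of -0.36 (SE 0.09, adjusted p = 0.0300 by edgeR with group as a term), where 3.54% of all genes passed that test. It shares 3186 bp of its span with PRELID1 and 2284 bp with RAB24, both expressed. Exons of these genes were not compared, so the count of MXD3 is uncertain there.

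MNT (ENSG00000070444, chromosome 17, 2287354 to 2304412), the most widely expressed MYC antagonist, was nearly constant at 22.6 and 22.8 CPM in the controls and 22.4 and 21.8 CPM in the libraries labelled knockdown. Its groups do not overlap although the means differ by 2.68% (log2 fold change -0.04, 95% interval -0.27 to 0.19, adjusted p = 0.862). MGA (ENSG00000174197, chromosome 15, 41913422 to 42062141), the large scaffold of PRC1.6, was at 65.8 and 83.4 CPM in the controls and at 63.3 and 63.2 CPM in the libraries labelled knockdown. The knockdown libraries were alike, and control library 2 stood above the other 3. The log2 fold change of -0.24 (SE 0.12, adjusted p = 0.270) became -0.39 without control library 1 (adjusted p = 0.0173, past the threshold) and -0.06 without control library 2. With terms for GC content and length it was -0.06.

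Levels of different genes were compared per kb of exon. In the controls the order ran from MYC at 147 ± 12.3 CPM per kb to MAX at 9.18 ± 0.656, MXD4 at 9.12 ± 0.345 and MXI1 at 8.91 ± 0.768 CPM per kb. MAX overlapped MXD4 and MXD4 overlapped MXI1, while MXI1 lay above MXD3. MXD3 (6.81 ± 1.77) overlapped MGA (5.14 ± 0.856), and MXD1 (4.10), MYCN (3.70), MNT (3.59) and MYCL (0.629 CPM per kb) followed without overlap between neighbours. In the libraries labelled knockdown, MXD4 stood at 11.0 ± 0.389 and MXI1 at 7.22 ± 0.289 CPM per kb, with no overlap between them. MYC alone made up 73.6% to 74.6% of the summed level of the 10 genes in every library. These orders, that share and the ratios per kb below rest on exonic length and on the spread of 2 libraries a group. Bias between genes from length, GC content or overlapping genes was not measured, so small gaps do not settle an order.

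Ratios within a library do not depend on how libraries are scaled to each other, and they were chosen after the levels were seen. MYC over MAX, per kb, was 16.1 and 15.8 in the controls and 13.7 and 13.8 in the libraries labelled knockdown. The summed level of MXD1, MXI1, MXD3, MXD4, MNT and MGA over MAX was 4.05 and 4.16 against 3.48 and 3.53. Both ratios to MAX were lower in each knockdown library than in each control, with group differences larger than the spread within a group. They share MAX as the denominator, so they are not 2 separate differences. MAX stood at 9.64 and 8.71 CPM per kb in the controls and at 10.7 and 10.3 in the libraries labelled knockdown. The levels of MYC and of the 6 summed genes each overlapped between the groups. MYC, MYCL and MYCN together over those same 6 genes gave 4.09 and 3.93 in the controls and 4.04 and 4.02 in the libraries labelled knockdown, and there the groups overlapped. MXI1 over MXD4 was 1.01 and 0.943 against 0.695 and 0.625. With 2 libraries a group, an exact permutation test of a single ratio cannot pass the threshold, so these are given as values.

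**Figure D3:**
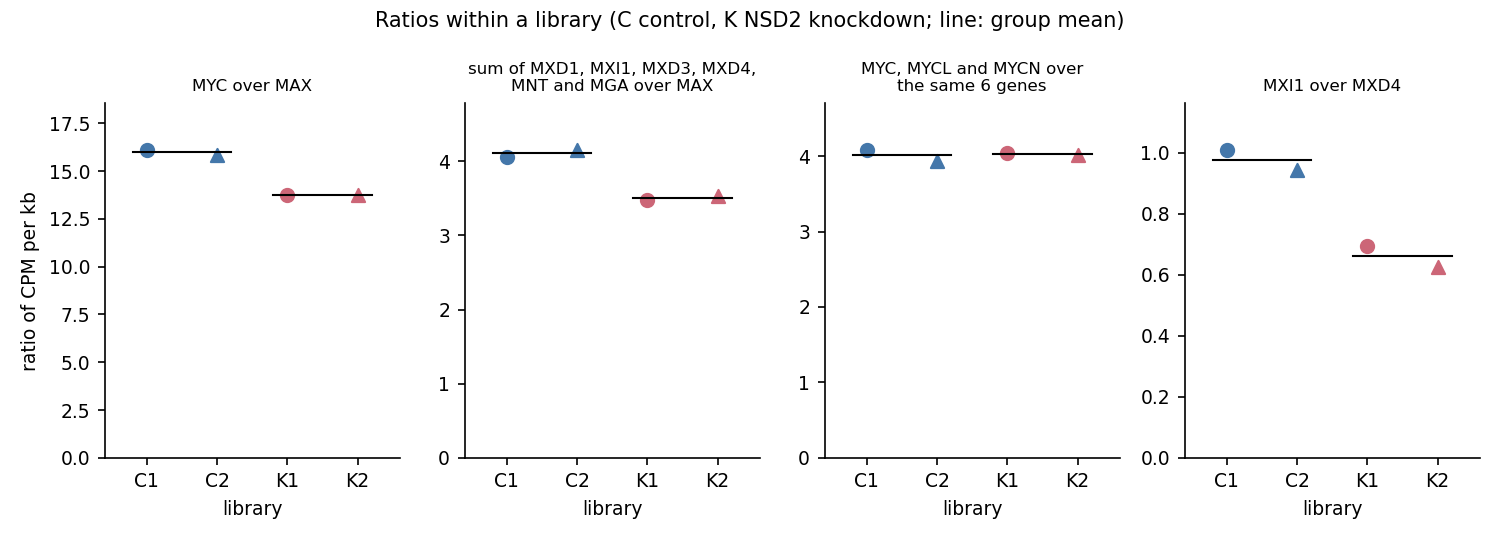
Ratios of CPM per kb within each library, on linear axes from 0, for control libraries 1 and 2 (C1, C2) and NSD2 knockdown libraries 1 and 2 (K1, K2), with a line at each group mean. MYC over MAX and the 6 opposing genes over MAX are lower in K1 and K2, while the MYC family over the same 6 genes lies between 3.93 and 4.09 in all 4 libraries.

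By the smallest root mean square distance between log2 CPM profiles, each centred on its own mean over the 4 libraries, the genes most like MYC among 11547 protein-coding genes were RACK1, a ribosome scaffold gene (distance 0.00633), VPS37C (0.00943) and B4GAT1 (0.00964). Those most like MYCL were the mineralocorticoid receptor gene NR3C2 (0.0167), ZNF467 (0.0347) and CPNE2 (0.0423). NR3C2 stood at 3.28 and 2.95 CPM in the controls and at 1.32 and 1.22 CPM in the libraries labelled knockdown. These likenesses over 4 libraries are a description.

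Known MYC-induced genes, of nucleolar ribosome assembly, nucleotide synthesis and mitochondrial folding, gave 0 rises and 0 falls among 43 tested by edgeR. Over all genes tested, 5.93% were called in either direction. An unadjusted p below 0.05 was reached by 22.5% of all genes tested and by 8 (18.6%) of the 43 MYC-induced genes. Their median log2 fold change was 0.10, against -0.00165 for all genes tested. Of the 43, 31 were above 0 and 12 below, where 8541 of all 17172 genes tested were above 0 and 8631 below. In 27 of 43 (62.8%) the groups did not overlap, against 53.2% of all genes. The range was narrow, from -0.33 for TFRC, the transferrin receptor gene, to 0.32 for MRTO4, a ribosome assembly gene (75.7 and 80.5 CPM in the controls, 93.6 and 101 CPM in the libraries labelled knockdown, adjusted p = 0.0814). DESeq2 and limma-voom gave 0 calls in this list as well, and edgeR without a filter gave 2 falls. MRTO4 and TFRC were named after their values were seen. CACGTG was in 22.0% of the 50 promoter windows matched to 37 of these genes, in 4 of the 25 windows matched to 14 of the MYC-repressed genes, and in 6.34% of all windows.

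Genes that MYC is known to repress gave 1 rise and 0 falls among 16 tested of 18. Of all genes tested, 1.74% rose and 4.19% fell, 5.93% in either direction. The list had a median log2 fold change of -0.03, with 8 above 0 and 8 below. At an unadjusted p below 0.05 stood 6 of the 16 (37.5%), against 22.5% of all genes tested. The rise was that of GADD45A, a stress and growth arrest gene (chromosome 1, 68150744 to 68154021), from 25.8 and 26.7 to 36.5 and 47.7 CPM (log2 fold change 0.68, SE 0.13, adjusted p = 0.0154). Its knockdown libraries were both above both controls, and without knockdown library 2 the log2 fold change was 0.47 with an adjusted p of 0.0753. Nearest to the threshold without passing it were NDRG2 (log2 fold change -1.05, adjusted p = 0.0577), NDRG4 (-0.71, 0.0680) and BTG2 (0.52, 0.0997). The cyclin-dependent kinase inhibitor gene CDKN1A stood at 82.1 and 72.8 CPM in the controls against 64.0 and 65.3 CPM (adjusted p = 0.152). These 4 genes were named after their values were seen. The list count was 3 when either control or the first knockdown library was left out, and 2 without knockdown library 2, where no rise was left.

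Cofactors of MYC and the enzymes of its turnover gave 0 rises and 0 falls among 26 tested by edgeR, beside 5.93% of all genes called. Of the 26, 4 (15.4%) had an unadjusted p below 0.05, against 22.5% of all genes tested. The median log2 fold change of the list was -0.02. DESeq2 and limma-voom called 1 gene higher each, and edgeR without a filter called 3. RUVBL1, an ATPase gene of MYC-linked chromatin complexes, came nearest, at 109 and 101 CPM in the controls and 138 and 133 CPM in the libraries labelled knockdown (log2 fold change 0.36, adjusted p = 0.0501, and from 0.0152 to 0.174 over the 12 alternatives). SKP2, which encodes a ubiquitin ligase subunit that acts on MYC, stood at 39.3 and 34.6 CPM against 30.5 and 23.8 CPM (adjusted p = 0.0841). BIN1, a MYC-interacting gene of low level here, stood at 2.91 and 1.93 CPM against 1.47 and 0.884 CPM (adjusted p = 0.0726). RUVBL1, SKP2 and BIN1 were chosen after their values were seen.

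The SIN3 corepressor, which MXD proteins and MNT recruit, gave 1 fall and 0 rises among 18 tested subunit genes (median log2 fold change 0.03). Among all genes tested, 4.19% were lower and 5.93% were called in either direction, so 1 call in a list of this size is near the background. Of the 18, 12 were above 0 and 6 below, where 8541 of all 17172 genes tested were above 0. In 7 of the 18 (38.9%) the groups did not overlap, against 53.2% of all genes. BRMS1L, a subunit gene of this complex (chromosome 14, 36295524 to 36401531), fell from 8.90 and 9.50 to 4.92 and 5.14 CPM, a 1.83-fold fall (log2 fold change -0.87, SE 0.14, adjusted p = 0.00863). The groups were far apart, and the call held in all 12 alternatives without a replicate block. Its paralog BRMS1 stood at 30.6 and 29.6 CPM in the controls and at 36.6 and 37.8 CPM in the libraries labelled knockdown (adjusted p = 0.0992, named after its value was seen).

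Partners of MGA in PRC1.6 gave 0 rises and 0 falls among 15 tested by edgeR, and DESeq2 and limma-voom also gave 0 calls. By edgeR 5.93% of all genes were called. Of the 15, 2 (13.3%) had an unadjusted p below 0.05 by edgeR, against 22.5% of all genes tested. The median log2 fold change of the 15 was 0.15, with 10 above 0 and 5 below, where 8541 of all 17172 genes tested were above 0. In 11 of the 15 the groups did not overlap, next to 53.2% of all genes. Of the germline genes that this complex is known to silence, 9 of 16 were too low to test. Among the 7 tested, 1 rose and 0 fell (median log2 fold change -0.04), where 1.74% of all genes tested rose and 4.19% fell. With 7 genes, 1 call gives no result about the list. SYCP3, a gene of the meiotic chromosome axis (chromosome 12, 102122426 to 102133250), rose from 13.6 and 21.8 to 27.6 and 43.5 CPM (log2 fold change 1.01, SE 0.24, adjusted p = 0.0363). The whole span of SYCP3 lies within that of CHPT1 on the other strand. CHPT1 had 3630 and 3801 fragments in the controls and 4703 and 5999 in the libraries labelled knockdown. Exons of the 2 genes were not compared, so the fragments of SYCP3 are uncertain in origin. SYCP3 missed the threshold with DESeq2 (adjusted p = 0.205), library-size scaling, the filter of 1 CPM, and GC and length terms, and it also differed between library numbers (number 2 over number 1, log2 fold change 0.67, adjusted p = 0.000109).

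The MLX branch is a linked network in which MLX pairs with MLXIP in nutrient sensing and also with MXD1, MXD4 and MNT. This list gave 0 rises and 0 falls among 3 tested of 5 by edgeR, and 0 with DESeq2 or limma-voom. By edgeR 5.93% of all genes were called. Of the 3, 1 (33.3%) had an unadjusted p below 0.05 by edgeR, against 22.5% of all genes tested. MLX stood at 86.4 and 97.7 CPM in the controls and at 97.1 and 108 CPM in the libraries labelled knockdown. MLXIP stood at 23.1 and 31.5 against 23.2 and 19.5 CPM, with overlap (log2 fold change -0.36, adjusted p = 0.211 by edgeR). Over the 12 alternatives without a replicate block, the log2 fold change of MLXIP ran from -0.56 to -0.12. MLX and MLXIP were named after their values were seen. TXNIP, a target of this branch, has its entry on a patch scaffold with 0 fragments in all 4 libraries and was not tested. IRF4, the plasma cell factor tied to MYC, was at 598 and 698 CPM in the controls. In the libraries labelled knockdown IRF4 was at 469 and 525 CPM, without overlap. Its log2 fold change was -0.38 (SE 0.11), with an adjusted p of 0.0810 by edgeR, 0.0330 with DESeq2 and 0.0747 with limma-voom. When 1 library was left out, the log2 fold change of IRF4 ran from -0.48 to -0.27.

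**Figure D4:**
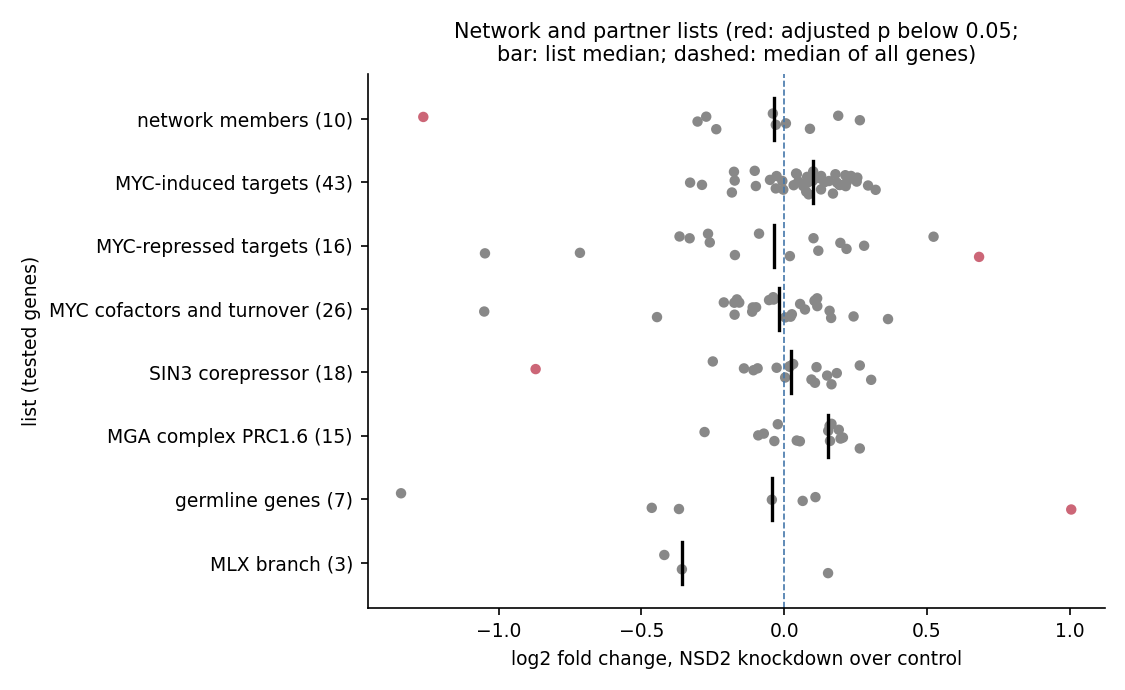
Log2 fold change, NSD2 knockdown over control, of each tested gene of the network and of 7 partner lists, with the number tested in brackets, a bar at each list median and a dashed line at the median of all genes. Single genes of 4 lists passed the threshold (red): MYCL, GADD45A, BRMS1L and SYCP3.

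In the authors' deposited table, MYCL has a log2 fold change of -1.19 (SE 0.468) with a p of 0.0110 and an adjusted p of 0.272, so it is no call there. The other 9 members have an adjusted p of 1 in the authors' deposited table, with log2 fold changes from -0.28 for MXI1 to 0.27 for MXD4. The base mean of MYC in the authors' deposited table, 27010, is above its count in each of the 4 libraries, 19500 to 23533. Across the authors' deposited table, 126 genes with at most 1 fragment in each of the 4 libraries have a base mean of at least 10, so that model drew on more than these 4 libraries. The SE of the 10 members in the 2 sources therefore rest on different samples.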

How the data were processed

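Trim Galore 0.3.7, STAR 2.5.3, Picard, featureCounts of Subread 1.4.6 and DESeq2 were used by the authors on GRCh37, per the submitters' processing notes. Counting was unstranded and by fragment, on alignments named as free of duplicates, per the file headers. For every library the deposited file lists unnormalized counts by Ensembl identifier. The authors' deposited table gives a base mean (a signal), a log2 fold change with its SE, p-values before and after adjustment, the score of the Wald test and exonic lengths in bp. Its 4 columns of counts per library were not used, and neither was the 1 blank line in each count file. TXNIP has its entry on a patch scaffold.

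Symbols and coordinates came from the deposited table, gene types and GC content from GENCODE release 29 by identifier, and promoter windows from RefSeq. Groups were compared in R 4.3.3 with edgeR 4.0.16 (quasi-likelihood F test, TMM scaling, default filterByExpr, no covariate). Adjusted p-values are those of Benjamini and Hochberg across 17172 tested genes, and 0.05 was the threshold. The coefficient of biological variation was 9.81%. CPM are on TMM-scaled libraries, and SDs are over 2 libraries. CPM per kb divides CPM by exonic length. The 2 libraries of a group differed by far more than sampling noise (chi-square per degree of freedom 26.0 and 23.0).

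The members and lists were chosen with earlier results of these data known. There were 7 partner lists and 6 marker lists. Named were all members, NSD2, IRF4, the marker genes given above and up to 3 rises and 3 falls of each partner list. Other genes are marked as chosen after their values were seen. On simulated counts of this comparison (16853 genes tested), the test recovered 39.5%, 80.0% and 96.2% of genes changed by 1.5-fold, 2-fold and 4-fold, with 10 false among 142 calls, and it made 2 calls where no gene was changed. The 14 alternatives were other scalings, filters, DESeq2 1.42.0, voom of limma 3.58.1, a replicate block, spline terms for GC content and length (alone and with the block) and leaving out each library. Fits that leave out a library assume that the single one remaining in that group varies as the other group does.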

Additional observations from a re-analysis of the deposited data

How the results depend on the processing

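MYCL stayed lower past the threshold in all 14 alternatives. The count of genes changed (1018, 299 higher and 719 lower) was 2148 with no filter, and 822 to 2024 when 1 library was left out, where the 2024 came without control library 1. The fit with no filter tested 31645 genes, against 17172 in the main fit, so these 2 counts have different bases. Library-size scaling gave 239 higher and 687 lower genes of 17172 tested. Without 1 library the network count was 1 to 3, the MLX branch 0 to 1, cofactors 0 to 2, germline genes 1 to 2, MYC-induced genes 0 to 2 and MYC-repressed genes 2 to 3. The cofactor count was 3 with no filter and 1 each with DESeq2, limma-voom and GC and length terms. The PRC1.6 count was 1 with GC and length terms. The germline count was 0 with library-size scaling, the filter of 1 CPM, DESeq2, and GC and length terms. With no filter MYC-induced genes gave 2 and MYC-repressed genes 4 calls, and DESeq2 gave 3 for the latter. Over all genes, DESeq2 called 1071 of 31645 fitted and limma-voom 1007 of 17172. GC and length terms gave 1090 of 16533 genes, and the filter of 1 CPM gave 792 of 13426. The list counts are to be read beside those for the same setting. The cause of the shifts in these counts was not tested.

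Signs near 0 were not stable. The log2 fold change of MYC ran from -0.12 to 0.063, that of MYCN from -0.086 to 0.092 and that of MXD3 from -0.16 to 0.39 when 1 library was left out, that of MXI1 from -0.39 to -0.21 and that of MGA from -0.39 to -0.063. MYCN was -0.0059 with upper-quartile scaling, -0.013 with library-size scaling, -0.0041 with the filter of 1 CPM and -0.029 with GC and length terms.

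The labels do not say that equal library numbers mark a pair, and the deviations of equal numbers from their group means correlated at 0.236 over genes. With the number as a replicate block, 3319 of 17172 genes were called, and 4536 of 16533 with GC and length terms added. The block alone called 4 members, with MXD1 (log2 fold change -0.27, adjusted p = 0.0404), MXD4 (0.27, 0.0296) and MXI1 (-0.30, 0.0167) beside MYCL. The block with GC and length terms called 5, adding MAX (0.21, adjusted p = 0.0255) to MXD1 (-0.24), MXD4 (0.33) and MXI1 (-0.31), and gave MYCN -0.031. The block alone called 1 of 3 genes in the MLX branch, 4 of 26 cofactors and 4 of 18 in SIN3. It called 2 of 15 in PRC1.6, 2 of 7 germline, 5 of 43 MYC-induced and 6 of 16 MYC-repressed genes. With GC and length terms the block called 4 of 26 cofactors, 6 of 18 in SIN3 and 6 of 15 in PRC1.6. It called 3 of 7 germline, 10 of 43 MYC-induced and 8 of 16 MYC-repressed genes, and 0 of 3 in the MLX branch. The counts over all genes given above are the background of these list counts. The block leaves 1 residual degree of freedom. At this depth MYCL rested on 67 to 169 fragments per library, and with 2 libraries a group, changes near 1.5-fold are often missed.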
